A study of Mus musculus with 28 samples.

Results

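The 10 genes described here encode the core pluripotency transcription factors of mouse embryonic stem cells (mESCs): Pou5f1, Nanog, Sox2, Klf4, Klf2, Klf5, Esrrb, Tfcp2l1, Tbx3 and Prdm14. They were taken by name and not by a measured value, though earlier results of these data were known. The source was the 22380 protein-coding genes annotated on the mm9 build. Each of the 10 was studied with 50 kb on either side of its gene body. Chromatin immunoprecipitation with sequencing (ChIP-seq) was done in HATX WT mESCs, a haploid-derived line of mixed background, and in Spen KO clone 2, in which most of Spen, the gene of a large RNA-binding corepressor, is deleted. HATX cells hold an Xist transgene that doxycycline switches on, and the samples' labels name no doxycycline treatment. Cells were grown on gelatin in serum and LIF. Each genotype gave 2 libraries for each of 4 antibodies, against H3K27Ac, H3K4me3, H3K9me3 and Oct4, for 16 ChIP libraries, with 12 input libraries beside them. The study's methods call the paired libraries technical replicates, and the KO is 1 clone, so the spread between libraries does not include that between cultures or clones. What was deposited is 10 peak lists, in which the depth of the libraries is unknown and neither the level of Spen RNA nor the deletion can be checked.

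Oct4, the protein made from Pou5f1, binds an octamer in DNA through its POU domain, commonly beside Sox2 on a joined Sox and octamer element. Together with Nanog these factors bind the enhancers of their own and each other's genes, and Klf2, Klf4, Klf5, Esrrb, Tfcp2l1, Tbx3 and Prdm14 extend that network in the naive state that LIF sustains. H3K27Ac marks active enhancers and promoters, H3K4me3 marks promoters, and H3K9me3 marks silenced chromatin.

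The sequences under Oct4 peaks were read from mm9 because they show where the factor met its own network. Among 7698 sites made by joining the peaks of the 4 Oct4 libraries, 52 fell in the windows of the 10 genes. Within 100 bp of the summit, a Sox element CNTTGT followed after 1 base by the octamer form ATGCNNAT was searched on both strands, with at most 1 mismatch in its 11 fixed letters. It was found at 5 of the 52 sites (9.62%) and at 3.65% of 7681 sites on reference chromosomes. Among sites called in at least 3 libraries, of which the members held more, it was at 2 of 17 (11.8%) and at 9.49% of all 1064, so part of that gap went with the number of libraries. The octamer ATGCAAAT alone was found at 2 of the 52 (3.85%) and at 3.71% of all sites, so its share near these genes was close to that background. The 7 sites follow, with the element or octamer in capitals and the strand on which it reads. An octamer can overlap the second piece of the longer element, but none of these 7 sites held both.
Pou5f1 at -2.02 kb, chr17:35640971-35641031, minus strand: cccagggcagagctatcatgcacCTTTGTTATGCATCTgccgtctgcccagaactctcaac
Sox2 at 4.01 kb, chr3:34552948-34553008, plus strand: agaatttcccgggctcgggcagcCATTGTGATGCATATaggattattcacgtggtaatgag
Nanog at -0.01 kb, chr6:122657408-122657468, minus strand: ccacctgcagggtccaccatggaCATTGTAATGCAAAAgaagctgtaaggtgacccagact
Klf5 at 55.6 kb, chr14:99753408-99753465, minus strand: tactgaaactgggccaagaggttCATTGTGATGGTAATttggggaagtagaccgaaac
Prdm14 at 32.46 kb, chr1:13084840-13084886, plus strand: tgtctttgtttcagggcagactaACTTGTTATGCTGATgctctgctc
Tfcp2l1 at -2.33 kb, chr1:120522107-120522167, plus strand: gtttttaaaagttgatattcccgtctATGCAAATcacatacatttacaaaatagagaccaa
Klf2 at -7.68 kb, chr8:74835181-74835241, plus strand: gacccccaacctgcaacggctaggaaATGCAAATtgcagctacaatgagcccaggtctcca
Positions here and throughout are in kb from the annotated 5′ end of the gene, along its direction of transcription, so that upstream positions are negative. Sox2 at 4.01 kb was the site whose 11 fixed letters matched without a mismatch, as 0.404% of all sites did. A match is a description of the letters, and a site without one is a site where these letters were not in this window.

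The peak lists of the 10 windows were rich in active marks and poor in H3K9me3 in both genotypes. H3K27Ac peaks covered a median of 24.1 kb of a window in WT and 22.9 kb in Spen KO, where the median protein-coding gene had 0 kb in either. Ranked among all genes by H3K27Ac coverage, the members had a median percentile of 98.0 in WT and 98.6 in Spen KO. By H3K4me3 it was 79.8 and 85.3, and by H3K9me3 it was 26.3 and 15.5, in the same order. Windows differ in length, from 102.5 kb at Sox2 to 260.5 kb at Esrrb, and coverage was not divided by it. An H3K4me3 peak lay within 1000 bp of a transcription start site (TSS) of all 10 genes in both genotypes, as for 65.3% of all genes in WT and 63.8% in Spen KO. H3K27Ac was at a TSS of 9 of the 10 in WT and 8 in Spen KO, against 19.3% and 20.7% of all genes. The exception in both was Prdm14, and Tfcp2l1 was the other gene in Spen KO. The primed and early lineage list (Fgf5, Otx2, Pou3f1 and others, 9 of 10 matched), the extraembryonic list of 10 and the fibroblast list of 6 had no promoter with H3K27Ac in either genotype, so at this mark the cells carried the pattern of their label.

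**Figure D1:**
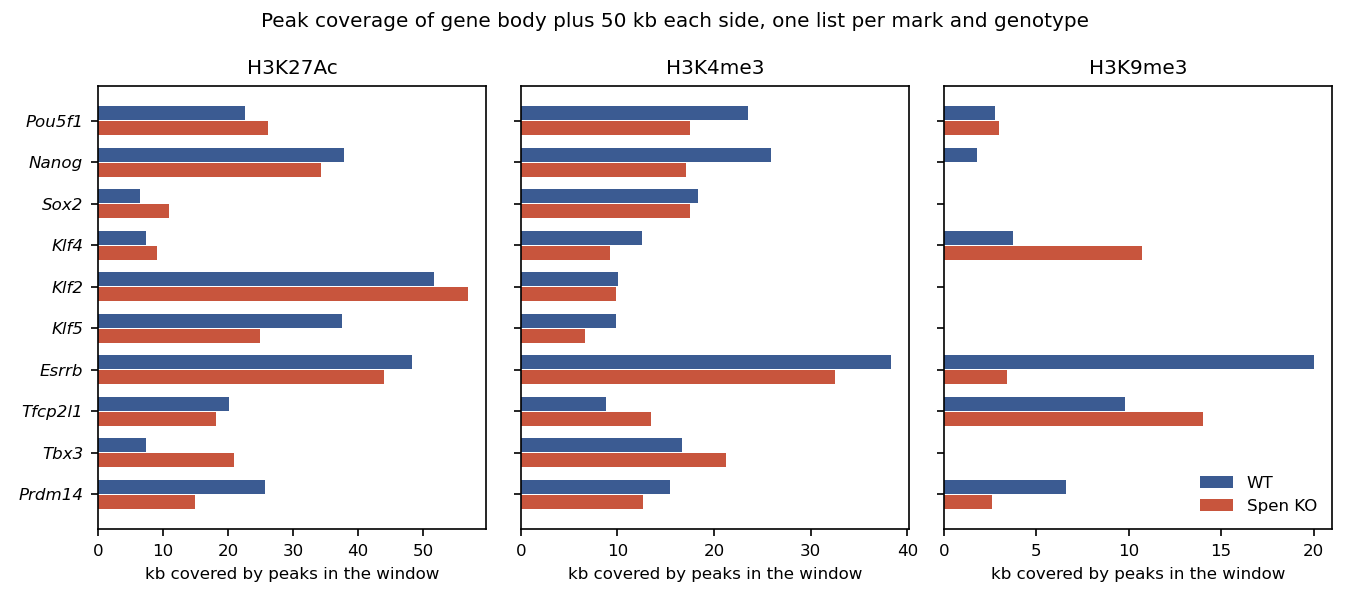
Length covered by peaks in the window of each gene (x axis, kb) for H3K27Ac, H3K4me3 and H3K9me3, with 1 bar per genotype from its 1 list, so no error can be drawn. Tbx3 had 7.38 kb of H3K27Ac in WT and 20.9 kb in Spen KO, while Prdm14 went from 25.6 to 15.0 kb.

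H3K27Ac coverage moved in both directions between genotypes. It was higher in Spen KO at 5 genes and lower at 5, and the median ratio of Spen KO to WT was 1.01 over the 10, against 0.846 over 9790 genes covered in both lists. Sox2 and Tbx3 were at least 1.5-fold higher in Spen KO, 2 of 10 beside 20.8% of 12232 genes with any coverage, and Klf5 and Prdm14 were at least 1.5-fold lower, 2 of 10 beside 37.1%. Both shares are close to or under the background, so a change of that size does not set these genes apart. At Klf5 the fold was 1.505, just past the threshold, and at Prdm14 it was 1.71, whereas Klf4, at 1.24-fold higher, was the nearest gene outside. With 1 list per genotype these folds have no replicate check.

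For the marks at single regions, a replicate check was possible. Each peak of a list carries the peak score of both libraries of that genotype, a number without unit in which higher is stronger. WT and Spen KO peaks that overlapped were joined, and the highest score of each library in each joined region was turned into its percentile among all regions found in both genotypes. Of 7512 such H3K27Ac regions, 64 were in the windows. Both Spen KO libraries were below both WT libraries at 18 of them, beside 22.1% of all regions, and above both at 11, beside 22.4%. The median difference was -2.51 percentile points over the 64 and -0.0416 over all regions. Of 25954 H3K4me3 regions, 67 were in the windows, 12 of them lower in both Spen KO libraries beside a background of 20.4%, and 14 higher beside 18.9%. This balance depended on the ranking, since percentiles among all peaks of a list gave 17 lower and 7 higher.

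The Pou5f1 locus, on chr17:35642982-35647721, held some of the strongest H3K27Ac of both lists. A peak from -5.46 to 5.99 kb, over the gene and the sequence upstream of it, was number 20 of 13922 in WT, and its counterpart was number 23 of 11932 in Spen KO. The libraries' scores there were 87.3 and 37.0 in WT against 111.9 and 40.7 in Spen KO, which overlap. The H3K4me3 region at the promoter, from -2.70 to 5.79 kb, had percentiles of 58.8 and 84.0 in WT against 54.1 and 87.3 in Spen KO, again with overlap. At the Oct4 site at -2.02 kb, upstream of the gene on both active marks, fold enrichment over input was 10.4 and 10.6 in WT against 8.35 and 12.5 in Spen KO. All 4 libraries had this site, and the genotypes could not be told apart at it. A second site at -0.87 kb had folds of 6.55 and 13.3 in WT, none called in Spen KO replicate 1, and 4.73 in replicate 2.

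Sox2, on chr3:34548927-34551383, encodes the HMG-box partner of Oct4. Its promoter H3K27Ac peak, from -2.00 to 3.07 kb, was number 6 in WT and number 4 in Spen KO, with library scores of 94.3 and 40.6 in WT against 68.5 and 111.0 in Spen KO. H3K4me3 at the same promoter was number 11 of 34823 in WT and 71 of 31091 in Spen KO, with scores of 100.5 and 95.7 against 69.3 and 76.6. Both Spen KO percentiles, 98.1 and 99.8, were under both WT ones, 99.9 and 100.0, all at the top of the range. Spen KO alone had 5 H3K27Ac peaks between 5.31 and 18.54 kb, ranked from 7427 to 11689, and these weak peaks made up most of the difference in covered length, 6.52 kb in WT and 10.9 kb in Spen KO. Oct4 sites at 4.01 kb, which holds the exact element shown above, and at 18.55 kb had peaks in WT replicate 2 and both Spen KO libraries. At 4.01 kb the folds were 7.88 in WT and 9.35 and 5.92 in Spen KO. At 18.55 kb they were 9.50 in WT and 7.48 and 6.39 in Spen KO, both lower. Sites at -3.55 and 1.26 kb had peaks in both Spen KO libraries and in neither WT library, with folds of 6.86 and 9.21 at the former and 11.8 and 5.26 at the latter.

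Nanog, on chr6:122657507-122664651, encodes a homeodomain factor. Its H3K27Ac was split in WT into peaks from -7.67 to -0.21 kb and from -0.12 to 2.83 kb, and was 1 peak from -7.62 to 3.05 kb in Spen KO. Joined, this region had library percentiles of 95.1 and 99.5 in WT against 98.6 and 89.2 in Spen KO, which overlap. H3K4me3 at the promoter did not overlap: scores were 44.4 and 50.3 in WT against 75.8 and 73.2 in Spen KO, at percentiles of 75.0 and 81.0 against 99.1 and 99.8. The leading H3K4me3 peak thus went from number 5378 in WT to number 53 in Spen KO, although H3K4me3 length over the whole window was 25.9 kb in WT and 17.1 kb in Spen KO. An H3K9me3 domain from -2.51 to -0.71 kb, just upstream of the Nanog TSS, was listed in WT and not in Spen KO. Nanog was the single member with an H3K9me3 domain within 1000 bp of a TSS in WT and none in Spen KO, beside 2.35% of all genes, and none of the 10 had the opposite, beside 2.20%. This domain was number 33377 of 53745, in the lower part of its list, and its score cannot be split by library. Oct4 peaks over the TSS, at -0.01 kb, had folds of 6.27 in WT replicate 2 and 8.80 in Spen KO replicate 2. The site at -4.57 kb had a fold of 5.07 in WT replicate 2 and of 6.50 and 5.43 in Spen KO.

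**Figure D2:**
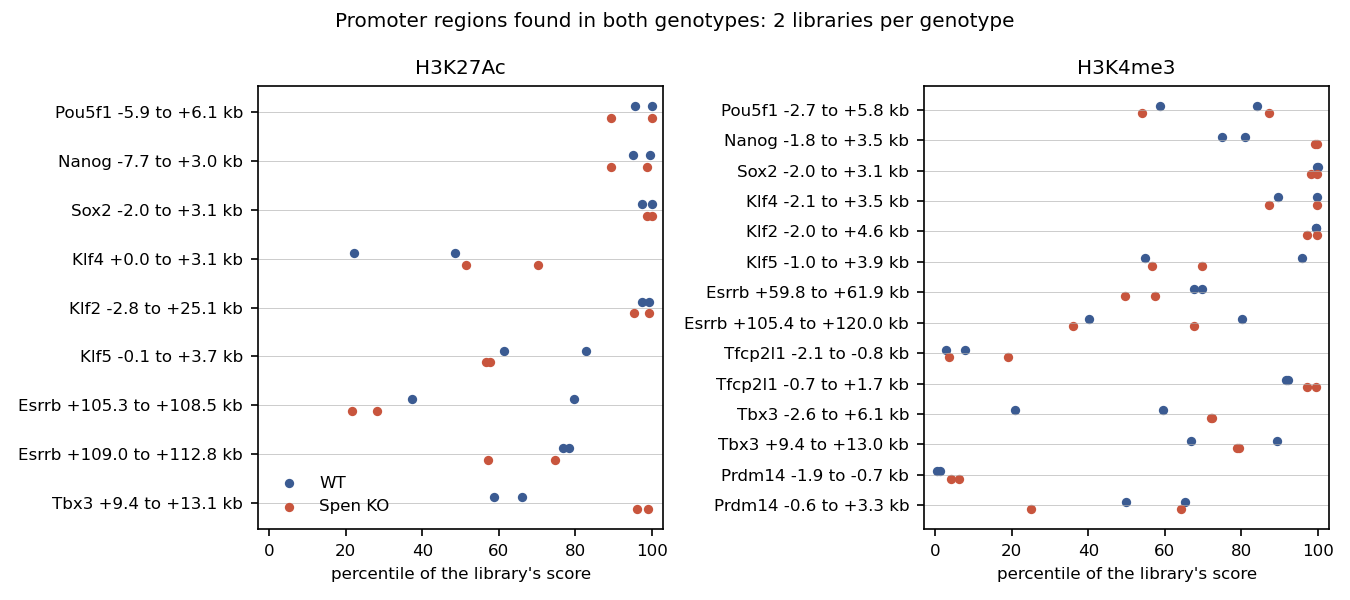
Percentile of each library's peak score (x axis) at regions within 1000 bp of the genes' own TSSs that were found in both genotypes, with 2 points per genotype, for H3K27Ac and H3K4me3. Nanog H3K4me3 and the Tbx3 H3K27Ac region at 9.43 to 13.07 kb lie higher in both Spen KO libraries. The Esrrb H3K27Ac region at 105.3 to 108.5 kb lies lower. Of 9 H3K27Ac regions, 2 are higher and 3 lower, beside 22.4% and 22.1% of all regions. Of 14 H3K4me3 regions, 4 are higher and 2 lower, beside 18.9% and 20.4%. The others overlap.

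Klf4, Klf2 and Klf5 encode related zinc finger factors that act partly in each other's place. At Klf4, on the minus strand of chr4:55540013-55545347, the strongest feature was a downstream H3K27Ac peak that began at 50.83 kb and ran past the window to 67.97 kb in WT. It was number 9 in WT, and its strongest counterpart was number 1 of the whole H3K27Ac list in Spen KO. That Spen KO peak ended at 57.25 kb, but the joined region reached 68.04 kb, past the end of the WT peak. Spen KO thus also had H3K27Ac at the far end, beyond the window, and the domain cannot be read as shorter there. Library scores were 61.2 and 71.7 in WT against 94.3 and 100.5 in Spen KO, but the percentiles, 98.9 and 100.0 against 99.9 and 100.0, overlapped at the ceiling. An Oct4 site inside it, at 54.96 kb, had folds of 8.46 and 8.12 in WT against 12.1 and 13.2 in Spen KO, without overlap. The promoter region of Klf4 was much weaker, with H3K27Ac percentiles of 48.6 and 22.2 in WT against 70.2 and 51.5 in Spen KO, higher in both Spen KO libraries. Klf4 promoter H3K4me3 overlapped between genotypes, at 99.8 and 89.4 in WT against 87.1 and 99.7 in Spen KO.

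Klf2, on chr8:74842932-74845555, had the longest H3K27Ac coverage, 51.6 kb in WT and 56.9 kb in Spen KO, more than 99.9% of genes in WT. The acetylated region over its promoter reached from -2.76 to 25.05 kb after joining. Its highest scores were 54.1 and 51.8 in WT against 72.3 and 50.2 in Spen KO, which overlap. The WT scores were those of a distal peak from 10.00 to 17.45 kb. The WT promoter peak, from -2.60 to 6.06 kb, had 49.6 and 28.8, both under the Spen KO scores. In Spen KO 1 peak from -2.76 to 20.45 kb covered both, so its scores cannot be placed at the promoter. None of the 5 Klf2 H3K27Ac regions separated the genotypes. Oct4 at -2.71 kb was called in all 4 libraries, with folds of 5.74 and 9.01 in WT against 8.35 and 12.01 in Spen KO, which overlap. At 15.35 kb the folds were 9.57 in WT replicate 2 and 10.6 and 14.2 in Spen KO, and WT replicate 1 had no peak. The octamer site at -7.68 kb was called in both Spen KO libraries, at 7.19 and 4.73, and in neither WT library.

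Klf5, on chr14:99697910-99712624, had 37.5 kb of H3K27Ac in WT and 24.9 kb in Spen KO. WT alone had 5 peaks, between 7.62 and 36.61 kb, all ranked 8525 or weaker. At 3 of its 7 shared regions both Spen KO libraries were below both WT, and at none above. These were the promoter, at percentiles of 82.7 and 61.3 in WT against 56.7 and 57.8 in Spen KO, a region from 23.35 to 25.32 kb, and one from 37.49 to 41.69 kb, at 96.8 and 91.6 against 80.6 and 43.8. Promoter H3K4me3 overlapped by percentile, at 95.8 and 54.8 in WT against 56.7 and 69.8 in Spen KO. Its scores did not overlap, at 68.3 and 32.3 in WT against 31.6 and 27.5 in Spen KO. Oct4 was called in WT replicate 2 and both Spen KO libraries at 41.31 kb, with folds of 8.24 in WT and 6.86 and 7.46 in Spen KO, and at 54.49 kb, with 7.32 in WT and 7.84 and 8.41 in Spen KO. The site with the Sox and octamer element at 55.6 kb and one at 0.67 kb, in an intron near the TSS, were called in both Spen KO libraries only, the former at 8.73 and 6.66. Sites in a single library lay at 26.26 kb, at 8.45 in WT replicate 2, and at 56.96 kb, at 6.66 in Spen KO replicate 2.

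**Figure D3:**
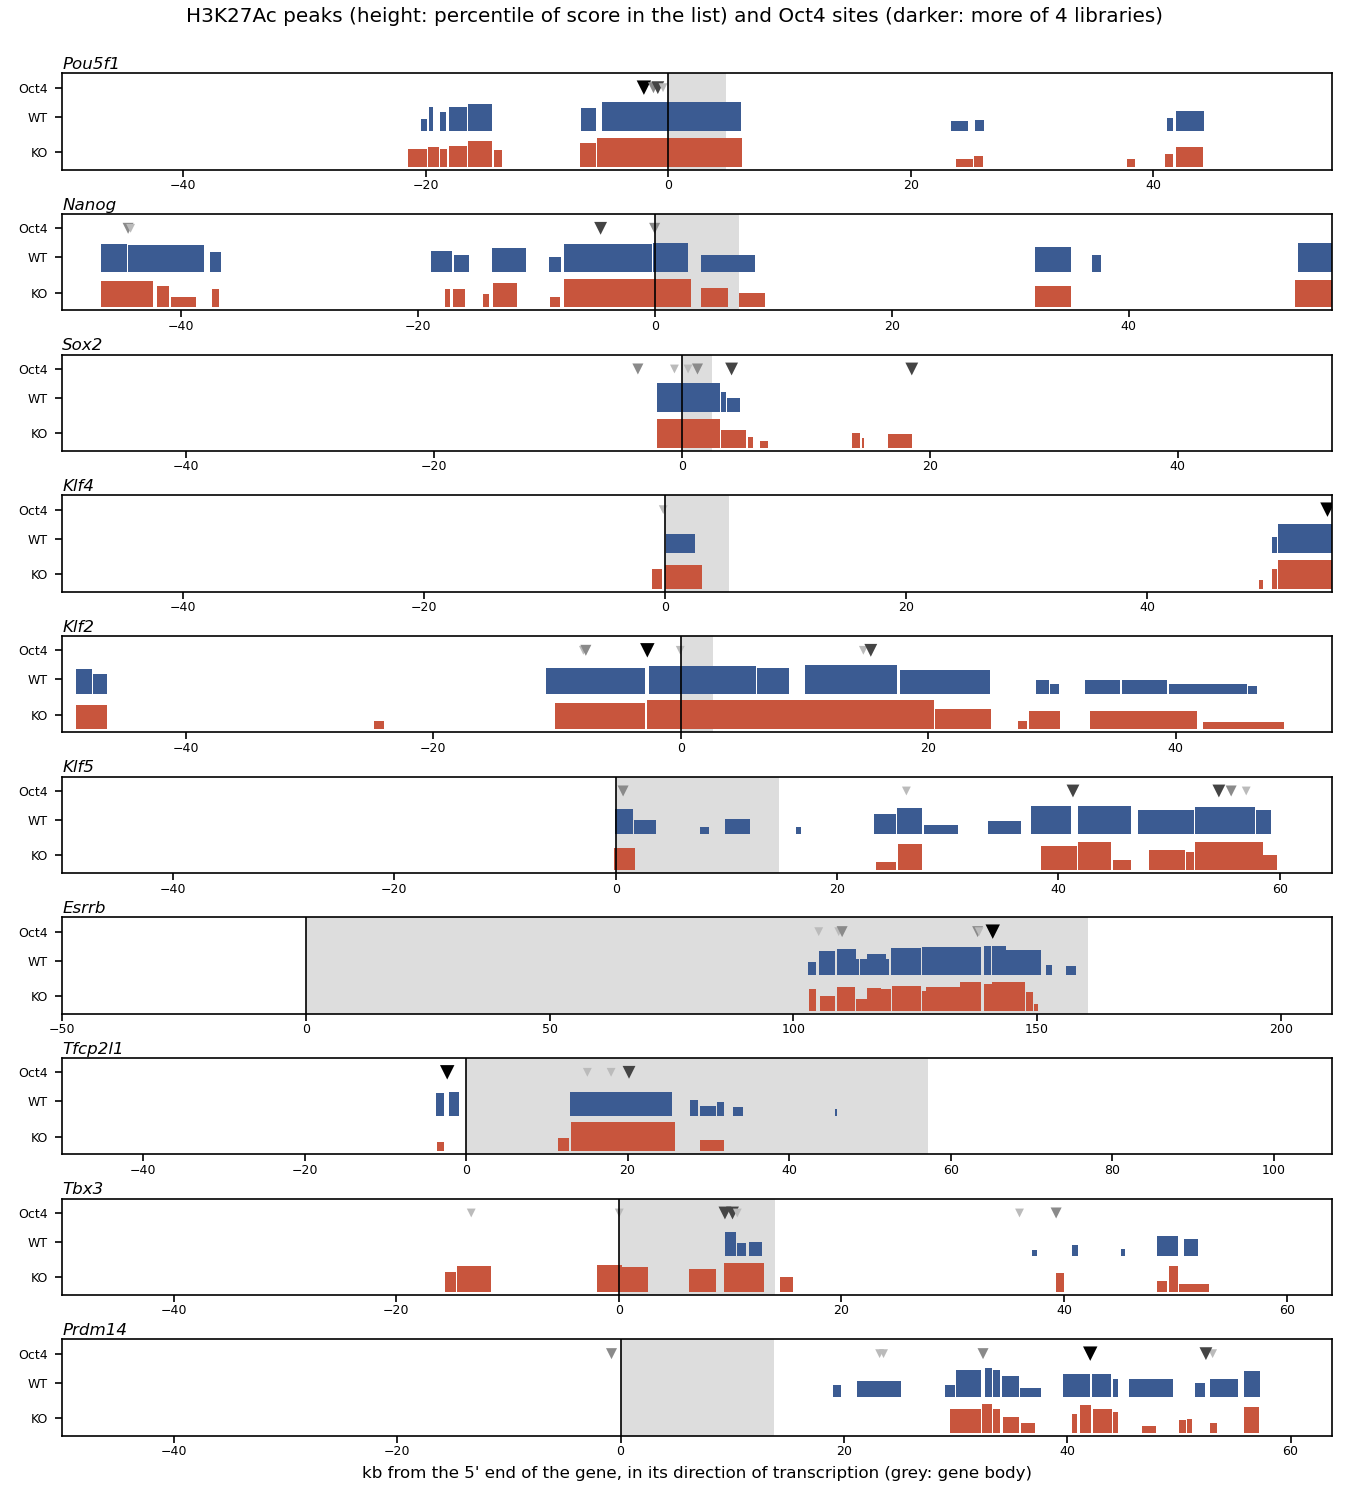
H3K27Ac peaks in WT and Spen KO (bars, whose height is the percentile of the score in its list) and Oct4 sites (triangles, darker with more of the 4 libraries) along each window, in kb from the 5′ end of the gene, with the gene body in grey. At Esrrb all H3K27Ac lies beyond 103.1 kb, at Prdm14 it lies beyond the 3′ end of the gene, and at Tbx3 the peaks around 0 and -13 kb are in Spen KO alone.

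Esrrb, on chr12:87702067-87862578, encodes an orphan nuclear receptor. Its most upstream TSS had no H3K27Ac, and acetylated chromatin began at 103.1 kb. Internal TSSs carried H3K4me3 in 2 places, from 59.84 to 61.86 kb and from 105.4 kb on. It had 48.3 kb of H3K27Ac in WT and 44.0 kb in Spen KO. Of its 9 shared H3K27Ac regions, 5 were lower and 3 higher in both Spen KO libraries. Both regions at internal TSSs were among the lower ones, at percentiles of 37.4 and 79.8 in WT against 28.3 and 21.6 in Spen KO from 105.3 to 108.5 kb, and of 78.3 and 76.7 against 57.3 and 74.6 from 109 to 112.8 kb. H3K4me3 from 59.84 to 61.86 kb was lower too, at 69.6 and 67.5 against 57.4 and 49.5, while that from 105.4 kb on overlapped. The strongest H3K27Ac region, from 140.8 to 150.9 kb, had percentiles of 99.7 and 99.8 in WT against 97.6 and 98.7 in Spen KO. The H3K27Ac region from 126.3 to 138.5 kb had 88.6 and 92.7 in WT against 96.5 and 95.3 in Spen KO. Neighbouring regions within the gene thus went opposite ways. Oct4 at 140.9 kb, within an intron, had folds of 6.74 and 6.66 in WT against 11.8 and 11.5 in Spen KO, without overlap. Sites near an internal TSS had no peak in WT replicate 1 or in Spen KO replicate 1, so no direction can be given for them. The one at 110.0 kb had folds of 10.8 in WT replicate 2 and 5.32 in Spen KO replicate 2. The one at 109.3 kb was called in WT replicate 2 alone, at 6.97. The window held 4 H3K9me3 domains in WT, 20 kb in all, and 1 in Spen KO, of 3.4 kb, all within the gene body. The WT domain from 116.7 to 119.7 kb, which had no counterpart in Spen KO, was number 25430 of its list and lay within the acetylated region that began at 115.1 kb.

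Tfcp2l1, on chr1:120524522-120581744 and annotated in this build under its older symbol Tcfcp2l1, encodes a CP2 family factor downstream of LIF and STAT3. Its H3K27Ac differed in strength between the genotypes, in opposite directions at different peaks. An intronic peak from 12.91 to 25.52 kb, number 2996 in WT, was number 47 in Spen KO, with library scores of 24.3 and 20.8 in WT against 68.9 and 72.3 in Spen KO. The percentiles, 60.4 and 67.5 against 98.8 and 99.3, did not overlap. Near the promoter the order was the opposite. A peak from -2.12 to -0.90 kb was listed in WT alone, number 3489, and the region from -3.70 to -2.76 kb had percentiles of 48.6 and 58.7 in WT against 18 and 2.64 in Spen KO. Tfcp2l1 was the single member with promoter H3K27Ac in WT and not in Spen KO, beside 2.89% of all genes, and no member had the reverse by the rule of any TSS, beside 4.29%. H3K4me3 at the TSS, from -0.73 to 1.66 kb, was nevertheless higher in Spen KO, at 97.3 and 99.5 against 91.8 and 92.1. Its H3K4me3 length of 8.83 kb in WT and 13.4 kb in Spen KO made it the single member at least 1.5-fold higher for that mark, beside 1.71% of 19324 genes. The fold at Tfcp2l1 was 1.52, just past the threshold. Nanog was the single member at least 1.5-fold lower, beside 24.8%. Its fold of 1.51 was just past the threshold, and it was not called with lists of equal length, with a 20 kb flank or with a 100 kb flank, where Klf4 was called instead. The octamer site at -2.33 kb, between these acetylated peaks, had Oct4 folds of 6.55 and 8.45 in WT against 9.45 and 14.5 in Spen KO, where the last was number 12 of 3028. At 20.18 kb, inside the intronic peak, the folds were 5.07 in WT replicate 2 and 6.65 and 5.39 in Spen KO.

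Tbx3, on chr5:120120678-120134733, encodes a T-box factor that LIF signalling sustains. It had the largest difference in H3K27Ac among the 10, from 7.38 kb in WT to 20.9 kb in Spen KO, 2.83-fold, which took it from above 85.9% of genes to above 98.4%. The most upstream TSS had H3K27Ac in Spen KO alone, as peaks from -1.95 to 0.24 kb, number 1336, and from 0.29 to 2.65 kb, number 2373. Further peaks in Spen KO alone lay from -15.63 to -14.62, from -14.50 to -11.47 and from 6.27 to 8.76 kb, the second of them number 1748. Internal TSSs near 10 kb kept the gene from counting as a promoter gain, since WT had peaks there too. The region from 9.43 to 13.07 kb had library scores of 26.1 and 18.8 in WT against 70.2 and 52.3 in Spen KO, and its percentiles were 66.0 and 58.7 in WT against 98.97 and 96.01 in Spen KO. H3K4me3 over the upstream TSS, from -2.62 to 6.10 kb, was present in both genotypes. By percentile it was higher in both Spen KO libraries, at 72.3 and 72.1 against 20.8 and 59.4. Its scores overlapped, at 18.1 and 34.7 in WT against 40.1 and 28.1 in Spen KO. Oct4 sites at 9.53 and 10.21 kb lay within the H3K27Ac region from 9.43 to 13.07 kb. Their folds were 4.70 and 5.18 in WT replicate 2, 5.90 and 6.86 in Spen KO replicate 1 and 10.9 and 7.36 in replicate 2.

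Prdm14, on the minus strand of chr1:13103538-13117244, encodes a PR domain protein that restrains FGF signalling and DNA methylation. H3K4me3 marked its promoter, from -0.63 to 3.34 kb. The percentiles there were 65.3 and 49.9 in WT against 64.2 and 25.1 in Spen KO, which overlap. A weak H3K4me3 region from -1.88 to -0.74 kb was higher in both Spen KO libraries, at 4.16 and 6.31 against 0.441 and 1.37 in WT. The H3K27Ac of Prdm14 lay between 18.98 and 57.28 kb, past the 3′ end of the gene. It included 11 regions found in both genotypes, of which 6 were lower and 2 higher in both Spen KO libraries. The strongest, from 32.35 to 33.23 kb, had scores of 70.7 and 59.6 in WT against 70.8 and 39.3 in Spen KO, and its percentiles of 99.7 and 99.7 in WT were above 99.1 and 87.9 in Spen KO. The 2 that were higher adjoined at 39.60 to 42.16 kb, at 67.3 and 43.7 in WT against 88.7 and 95.3 in Spen KO, and at 42.25 to 43.97 kb. An Oct4 site at 42.06 kb, at the edge of the former, had folds of 6.71 and 9.80 in WT against 13.7 and 12.3 in Spen KO, without overlap, and was number 13 of 2617 in Spen KO replicate 1. At 52.42 kb the folds were 5.11 in WT replicate 2 and 9.35 and 12.4 in Spen KO.

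Oct4 peaks in the 10 windows numbered 10 and 31 in the WT libraries and 37 and 33 in Spen KO. Both Spen KO libraries were above both WT libraries, but the difference of means, 14.5 peaks, was smaller than the SD of the WT pair (20.5 ± 14.8 in WT against 35.0 ± 2.83 in Spen KO, SD, n = 2 each). Without WT replicate 1 the difference was 4.00 peaks. With 2 libraries against 2, the smallest two-sided p that an exact permutation test can give is 0.333, so this test could make no call for any gene. As shares of each list the counts were 0.554% and 0.754% in WT against 1.41% and 1.09% in Spen KO. WT replicate 1 stood apart from the other 3 libraries: 73.0% of its 1806 peaks were within 1000 bp of a TSS, against 20.4% to 25.7% in the others. In the windows, the 3 sites that it alone held were at the TSSs of Klf4, Klf2 and Tbx3. Per gene, Sox2 had 0 and 2 peaks in WT and 7 and 4 in Spen KO, Klf2 had 2 and 2 against 5 and 3, and Tfcp2l1 had 1 and 2 against 3 and 4. These 3 of 10 genes had more in both Spen KO libraries, beside 5.48% of 9495 genes with any Oct4 peak, and none had fewer, beside 4.15%. The same 3 remained without WT replicate 1, beside 9.94% of 7245 genes.

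**Figure D4:**
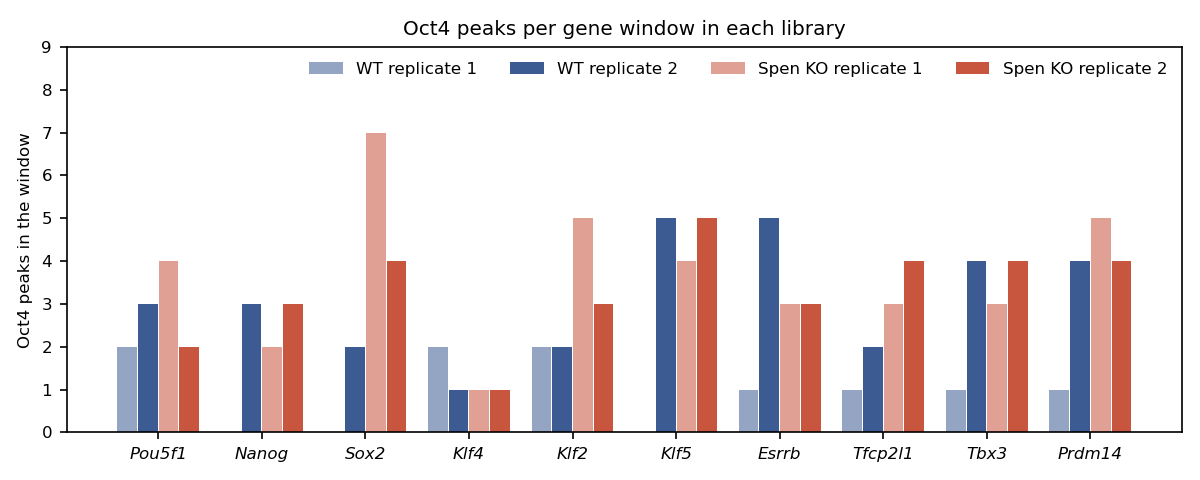
Number of Oct4 peaks (y axis) in the window of each gene in each of the 4 libraries, with 1 bar per library. Sox2, with 0 and 2 in WT against 7 and 4 in Spen KO, shows the widest gap, and WT replicate 1 has no peak at Nanog, Sox2 and Klf5.

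Of the 52 Oct4 sites, 6 were called in all 4 libraries and 17 in at least 3, or 32.7%, against 13.8% of all 7698 sites. The 6 lay at Pou5f1, Klf4, Klf2, Esrrb, Tfcp2l1 and Prdm14, all of them more than 1000 bp from any annotated TSS. A peak in each Spen KO library but no WT call marked 7 sites (13.5%, against 4.18% of all sites). The reverse marked 0 sites (against 0.429%). Members' sites were called in both Spen KO libraries more often, at 23 of 52 (44.2%, against 17.1% of all sites). Of such sites, 7 of 23 had no WT call, beside 322 of 1316 over all sites. Much of the gap for the 7 thus went with how often sites were called. At 16 sites called in both Spen KO libraries, at least 1 WT library had a peak too. Of these, both Spen KO folds were above every WT fold at 11, beside a background of 30.8% of 994 sites, and below at 2, at Sox2 and Klf5, beside 28.8%. The 11 were at Nanog, Klf4, Klf2, Klf5, Esrrb, Tfcp2l1, Tbx3 and Prdm14. That choice of sites asks for more calls in Spen KO than in WT, so sites weaker in Spen KO, such as Pou5f1 at -0.87 kb, drop out and the 11 cannot be read as a direction. Among the 6 sites called in all 4 libraries, which treats the genotypes alike, Spen KO was above at 4 (beside 22.0% of 268 sites) and below at 0 (beside 4.48%). With the choice turned round, to 7 sites called in both WT libraries and at least 1 Spen KO library, it was above at 4 (beside 23.0% of 339) and below at 1 (beside 10.6%). Fold enrichment was taken by the authors' peak caller against input in each library and is not scaled between libraries. H3K27Ac peaks lay on 42 of the 52 sites in WT and 44 in Spen KO (80.8% and 84.6%, against 33.9% and 35.8% of all sites). H3K9me3 lay on 0 in WT and on 1 in Spen KO, the Tfcp2l1 site at 15.02 kb.

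**Figure D5:**
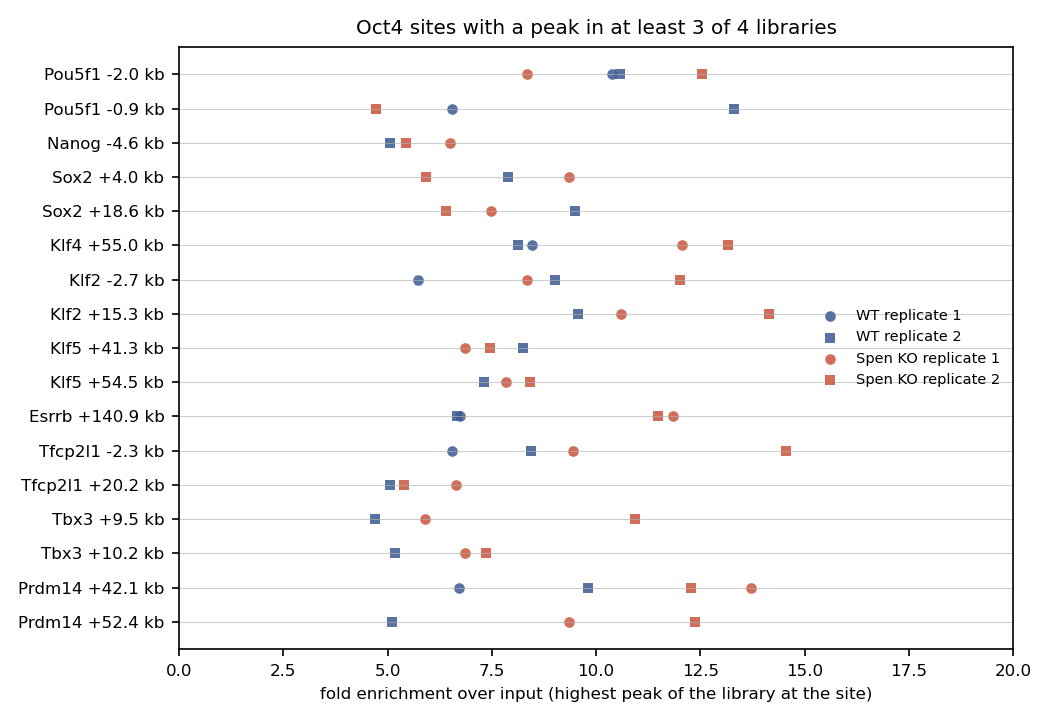
Fold enrichment over input (x axis) at the 17 Oct4 sites with a peak in at least 3 libraries, with 1 point per library that called the site. Klf4 at 54.96 kb, Esrrb at 140.9 kb, Tfcp2l1 at -2.3 kb and Prdm14 at 42.1 kb have both Spen KO points to the right of both WT points, while Pou5f1 at -2.0 kb and Klf2 at -2.7 kb overlap.

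Most H3K27Ac and H3K4me3 peaks of the windows were found in both genotypes, while the few H3K9me3 domains were shared at 6 of 12 in WT and 7 of 10 in Spen KO. Of 103 WT H3K27Ac peaks, 85 overlapped a Spen KO peak (82.5%, Wilson 95% interval 74.1% to 88.7%), against 60.2% of the whole list. Of 101 Spen KO peaks, 79 overlapped a WT peak (78.2%, 69.2% to 85.2%), against 70.6%. For H3K4me3 the shares were 78.9% of 95 WT peaks (69.7% to 85.9%) and 90.2% of 82 Spen KO peaks (81.9% to 94.97%), against 76.8% and 90.5% of the lists. Intervals cover counting of peaks only, and neighbouring peaks are not independent. No member gained or lost promoter H3K4me3, beside 2.04% of genes that lost it and 0.559% that gained it. H3K9me3 had 12 domains in the windows in WT, 6 of them shared (50%, 25.4% to 74.6%, against 88.2% of the list), and 10 in Spen KO, 7 of them shared (70%, 39.7% to 89.2%, against 76.8%). At this mark Sox2, Klf2, Klf5 and Tbx3 had none in either. At Klf4 a domain from -31.45 to -24.45 kb was listed in Spen KO alone, number 52838 of 70268. Tfcp2l1 had 2 more in Spen KO alone, from -11.12 to -7.12 kb and from 12.88 to 16.08 kb, numbers 69026 and 69542, the latter within the intronic H3K27Ac peak.

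Other pluripotency genes gave a similar picture at promoters. Of a list of 20 that includes Dppa, Tet and Zscan10 genes, 17 had promoter H3K27Ac in WT and 16 in Spen KO, and 3 had H3K27Ac coverage at least 1.5-fold lower and 2 at least 1.5-fold higher in Spen KO, out of 19 with any coverage. Both counts are under the 37.1% and 20.8% of all genes given above. Their windows held 4 and 24 Oct4 peaks in WT and 26 and 21 in Spen KO. Of the 20, 4 had more in both Spen KO libraries than in both WT, with 0 fewer. This was out of 15 with any Oct4 peak and beside 5.48% of all such genes. That share includes genes with a single peak, which cannot be called, so it is no like-for-like background here either. Tet2, the methylcytosine oxidase gene, and Dppa3 had Oct4 peaks in all 4 libraries, with 1 and 1 in WT against 4 and 4 in Spen KO at Tet2, and 1 and 2 against 4 and 4 at Dppa3. Tdgf1 had 0 and 2 against 4 and 1, Dppa5a had 0 and 4 against 4 and 3, Fgf4 had 0 and 1 against 2 and 2, and Zscan10 had 0 and 2 against 1 and 1. Outside the windows, the genes whose percentiles of coverage in the 10 lists were nearest to the members' medians were Phc1, X99384, Myst2, Cd9 and Slc20a1, at Euclidean distances of 14.2 to 16.0 percentile points, nearer than any member, of which Pou5f1 was nearest at 17.8 and Klf5 farthest at 61.5.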

How the data were processed

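ChIP-seq peak lists were used as deposited. Per the study's methods, Bowtie2 alignments to mm9 were reduced to uniquely mapped proper pairs, duplicates were taken out by Picard, and MACS2 compared each ChIP with input. In the deposited H3K27Ac and H3K4me3 lists each peak carries the peak score of both libraries, and the authors required an irreproducible discovery rate below 0.05. The library scores were averaged for ranks. The 2 scores carry no replicate number. The deposited H3K9me3 lists hold a score per domain in steps of 200 bp, and the methods name MACS2 for histone libraries without saying how domains in such steps were made. The Oct4 lists hold the authors' fold enrichment over input (a ratio) for each library. A count test was not possible, and read depth is unknown.

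Genes and TSSs came from GENCODE vM1 on the same build, and 1 of the 10 symbols, Tfcp2l1, was matched through a RefSeq synonym. Of the marker lists, 1 gene of the primed list was not matched. Windows, overlaps of at least 1 bp, coverage, percentiles and motif searches were computed in Python 3.11.15 with pandas 2.3.3, and Wilson intervals with statsmodels 0.14.6. The interval code and the rule of non-overlapping libraries were tested on simulated data. The members and lists were chosen with earlier results of these data known. All 10 members are named. Of the other pluripotency genes, the 6 with Oct4 in most libraries, ties broken by WT H3K27Ac, are named. The 5 genes nearest in pattern, each gene's own promoter peaks and Oct4 sites in at least 3 libraries complete the rule. Other peaks were named after their values were seen. Alternatives changed the overlap, window, promoter width, threshold, list length and libraries.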

Additional observations from a re-analysis of the deposited data

How the results depend on the processing

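Of 118 values recomputed under alternatives for 21 results, 82 were classed as the same as the reported value and 36 as moved. The first class is wide. It holds the Oct4 peak difference, reported as 14.5, at 4 without WT replicate 1 and at 25 without WT replicate 2. Both lie within the larger SD, 14.8, of the reported value, so the class does not mean that a value was stable. The order of paired results turned in some cases, given below. With a 2-fold threshold, 0 genes had lower and 1 (Tbx3) had higher H3K27Ac coverage, and 0 had lower and 0 higher H3K4me3 coverage. With lists of equal length, 1 gene had lower H3K27Ac coverage (Prdm14) and 0 had lower H3K4me3 coverage, and 10 Oct4 sites were in at least 3 libraries. The stronger 50% of each list, an alternative chosen after seeing the data, gave 1 gene with lower (Prdm14) and 1 with higher (Tbx3) H3K27Ac coverage. A 20 kb window gave 0 genes with lower H3K4me3 coverage, a 100 kb window gave 1 that was Klf4 and not Nanog, and distal peaks alone gave 3 lower (Nanog, Klf4, Klf5) and 2 higher (Tfcp2l1, Tbx3). Shared shares with lists of equal length were 89.25% for H3K27Ac WT, 90.14% for H3K4me3 WT and 79.27% for H3K4me3 Spen KO, so that the H3K4me3 share was higher in WT. With gaps of up to 1000 bp joined, they were 87.38% for H3K27Ac WT and 89.11% for H3K27Ac Spen KO, which turned that order, and 88.42% for H3K4me3 WT, and with the stronger 50% H3K4me3 Spen KO was at 100%. Ranking among all peaks of a list gave 17 lower and 7 higher H3K4me3 regions in place of 12 and 14. The cause of these shifts was not tested.

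Leaving out 1 library score at a time, lower H3K27Ac regions numbered 24 to 32 and higher ones 16 to 22. Lower H3K4me3 regions numbered 21 to 25 and higher ones 22 to 25. Counts rose since fewer values must then separate. Without the second WT score, 25 H3K4me3 regions were lower and 22 higher, which turned the order of 12 and 14. Without the second Spen KO score they were 23 and 23. Leaving out 1 Oct4 library gave a difference of 4 to 25 peaks, 3 to 8 genes with more peaks in Spen KO (8 when WT replicate 2 was dropped, 5 when Spen KO replicate 2 was) and 5 to 15 sites with higher folds (5 of 6 without WT replicate 2, beside 61.1% of all sites). Of sites called in all 4 libraries, or in both WT libraries and at least 1 Spen KO library, 4 had higher folds, since fewer sites qualify; both choices were made after seeing the data. Subtracting within replicate numbers (replicate block) gave 14.5 peaks, from pair differences of 27 and 2. The labels do not tie equal numbers together, and deviations of same-numbered libraries correlated at 0.023 over 9495 genes, which share their libraries. Peak lists hold no read depth, so a missing peak is a peak not called, and absence of binding cannot be told apart from low depth.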
